A study of Mus musculus with 34 samples.

Results

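Expression of 10 genes of regulated cell death was analysed in the left ventricle (LV) of mice after myocardial infarction (MI). The 10 genes were chosen by symbol, as members of the Bcl2 family and of the lytic death pathways: Bcl2, Bcl2l1, Mcl1, Bax, Bbc3, Pmaip1, Bcl2l11, Ripk3, Mlkl and Gsdmd. All 10 were listed in both deposited tables, 1 with 14552 genes in 10 libraries and the other with 17406 genes in 24 libraries. The first table holds hearts that received no injection: 3 control hearts, 3 hearts 4 h post-MI and 4 hearts 24 h post-MI. By the methods, the tissue taken was the ischemic area or, in control hearts, the matching area. The labels of these control hearts give no operation, whereas the methods describe sham surgery, and they are called sham here. The second table holds 2 sham-operated, uninjected hearts labelled 4 h, and infarcted hearts injected with Luc or AC modRNA (modified messenger RNA), with 4 libraries of each at 4 h, 3 of each at 24 h and 4 of each at 48 h.

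All animals were CFW mice, an outbred Swiss Webster stock, and their age was not given in the sources used here. By the paper's methods, the infarct was made by tying off a coronary artery, the LAD, for good. The modRNA was given there into the border of the infarct straight after. The paper does not describe the libraries of the second table, so the tables may also differ in the area sampled. Luc modRNA encodes luciferase and is taken here as the injected control. A Luc heart thus differs from a sham heart by infarct, injection and, at 24 and 48 h, time after surgery. These cannot be told apart. The labels do not spell out AC. Asah1, the gene of acid ceramidase, was at 5296 to 13703 CPM in the 4 AC libraries at 4 h, 104 to 305 at 24 h and 42.5 to 112 at 48 h, against 21.4 to 32.9 CPM in all Luc and sham libraries. The titles number the sham and 4 h libraries of the second table in a single series. The 48 h libraries have a series of their own. Titles of the 24 h libraries carry no such number, and they alone hold the letters Br, which the sources used here do not explain. Differences between times, or of 24 or 48 h from sham, therefore cannot be told apart from a difference between these sets.

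Proteins of the Bcl2 family control the permeability of the outer mitochondrial membrane. Bcl2, Bcl-xL (encoded by Bcl2l1) and Mcl1 hold the pore-forming effector Bax in check. The BH3-only proteins Puma (Bbc3), Noxa (Pmaip1) and Bim (Bcl2l11) each bind some or all of these inhibitors and free Bax. Free Bax leads to release of cytochrome c and apoptosis. In necroptosis, the kinase Ripk3 phosphorylates Mlkl, which then breaks the plasma membrane, and in pyroptosis inflammatory caspases cut gasdermin D (Gsdmd) into a fragment that forms pores in it. Both lytic routes spill cell contents, and cardiomyocytes after ischemia can die by any of these routes. Transcript levels do not report the cleavage, phosphorylation or protein turnover by which these proteins are largely controlled.

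The values are CPM, read counts relative to library size, as deposited and TMM-scaled for the first table. The second table was read as CPM after 1 was subtracted, and its scaling is not given. Differences were tested with limma on log2(CPM + 1), a scale on which the change of a gene near or under 1 CPM is understated. A q value is the p-value adjusted over all genes tested by the Benjamini-Hochberg method, and a gene was called at a q under 0.05. Fold values are ratios of mean CPM. By an estimate from the lowest value of each library, 12553440 to 18952669 reads lay behind each library of the first table. Pmaip1 rested on an estimated 7 to 137 reads per library and Bbc3 on 31 to 88, whereas Mcl1 rested on 3825 reads or more. The depth of the second table is unknown.

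In sham hearts, per kilobase of exon, Mcl1 stood far above the other members. The mean level in the first table was 47.1 CPM per kb for Mcl1, 9.96 for Bax, 5.93 for Bcl2l1 and 2.64 for Gsdmd. Bcl2l11 (1.53), Bcl2 (1.29), Ripk3 (1.18) and Mlkl (1.14 CPM per kb) lay close together, and Bbc3 (0.709) and Pmaip1 (0.147) were the lowest. In the sham hearts of the second table the order began with Mcl1 (69.3 CPM per kb), Bcl2l1 (14.2) and Bax (7.89), and Pmaip1 (0.289) and Bbc3 (0.291) again came last. The tables have no stated common scaling, and their control hearts differ in surgery by the labels, though not by the methods. These levels therefore stand side by side only. The exons of Bax share 22.1% of their bases with the gene model Gm45808 on the same strand, and 6.09% of those of Bcl2 lie in D630008O14Rik on the opposite strand. Neither model is listed in the first table, and whether reads of these 2 genes were lost to such overlaps was not tested.

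At 4 h post-MI, without injection, none of the 10 members passed the threshold, beside 2.37% of the 12487 genes tested (1.55% higher, 0.817% lower). Bcl2l1 and Pmaip1 had an unadjusted p under 0.05. Bcl2l1, which encodes the survival factor Bcl-xL, was at 31.0, 20.3 and 17.9 CPM in the sham libraries and at 50.3, 60.0 and 29.5 CPM at 4 h. The third of these 4 h libraries lay inside the range of sham, and the log2 fold change was 0.96 ± 0.31 (SE; limma, q = 0.158). Pmaip1 (Noxa) was at 0.470, 0.282 and 0.455 CPM in sham and at 1.35, 1.29 and 0.697 CPM at 4 h. All 4 h libraries lay above all sham libraries, with a log2 fold change of 0.58 ± 0.23 (SE; limma, q = 0.237). With the limma array weights, which give noisier libraries less weight, both passed. The calls over all genes rose there from 296 to 2500 of 12487. Mcl1 and Bbc3 also had no overlap between 4 h and sham, 3 of 10 members in all, against 10.9% of all genes higher, and 18% lower, in each 4 h library than in sham. For Ripk3, Mlkl and Gsdmd, the log2 fold changes were 0.21, -0.12 and 0.20, with 95% intervals reaching no further than 0.78 in either direction.

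At 24 h post-MI, without injection, 8 of 10 members rose over sham and none fell, while 66% of all genes changed (35.6% rose and 30.3% fell). The same 8 members rose against 4 h, where 63.9% of all genes changed (37.2% rose and 26.7% fell). The median log2 fold change of the 10 members was 1.45, beside 0.04 over all genes tested. Genes of opposite roles rose together: 2 of the 3 survival genes, the effector Bax, 2 of the 3 BH3-only genes and all 3 lytic death genes. In each of these 8, all 24 h libraries lay above all sham libraries and all 4 h libraries, where 35.3% and 37% of all genes did so and 28.7% and 25.1% lay lower throughout. Bcl2 and Bcl2l11 were the members that did not pass.

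Among the survival genes, Bcl2 was at 10.5, 9.04 and 15.9 CPM in sham and at 7.77, 8.38, 12.0 and 9.13 CPM at 24 h. The groups overlapped, with a log2 fold change of -0.29 ± 0.19 (SE; limma, q = 0.202). Bcl2l1 was at 103, 130, 61.5 and 77.9 CPM at 24 h, 4.04-fold the mean of sham, with a log2 fold change of 1.95 ± 0.29 (SE; limma, q = 0.00012). Mcl1, a short-lived protein that sequesters Bak and Bim, went from 156, 157 and 169 CPM in sham to 409, 337, 246 and 327 CPM at 24 h. This was a 2.05-fold rise, with a log2 fold change of 1.01 ± 0.14 (SE; limma, q = 9.1e-05). At 4 h Mcl1 was still between 174 and 183 CPM, so that 24 h stood 1.85-fold above 4 h as well (limma, q = 0.00033).

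Bax was at 9.47, 8.11 and 8.32 CPM in sham, at 10.9, 8.52 and 8.55 CPM at 4 h and at 36.4, 27.6, 23.6 and 32.4 CPM at 24 h. At 4 h it overlapped with sham, with a 95% interval of the log2 fold change of -0.25 to 0.44, and at 24 h it was 3.48-fold above sham. The log2 fold change was 1.67 ± 0.15 (SE; limma, q = 3.1e-06). The ratio of Bax to Bcl2, often read as a balance of death and survival factors in this family, had a median of 0.897 in sham, 1.20 at 4 h and 3.42 at 24 h (range 1.96 to 4.68). The ratio of Bax to Bcl2l1 had medians of 0.400, 0.217 and 0.369 in the same groups, and 3 of the 4 libraries at 24 h lay in the range of sham, 0.306 to 0.465. These ratios are of CPM, which does not correct for the length of the transcript, and are given as a description.

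**Figure D1:**
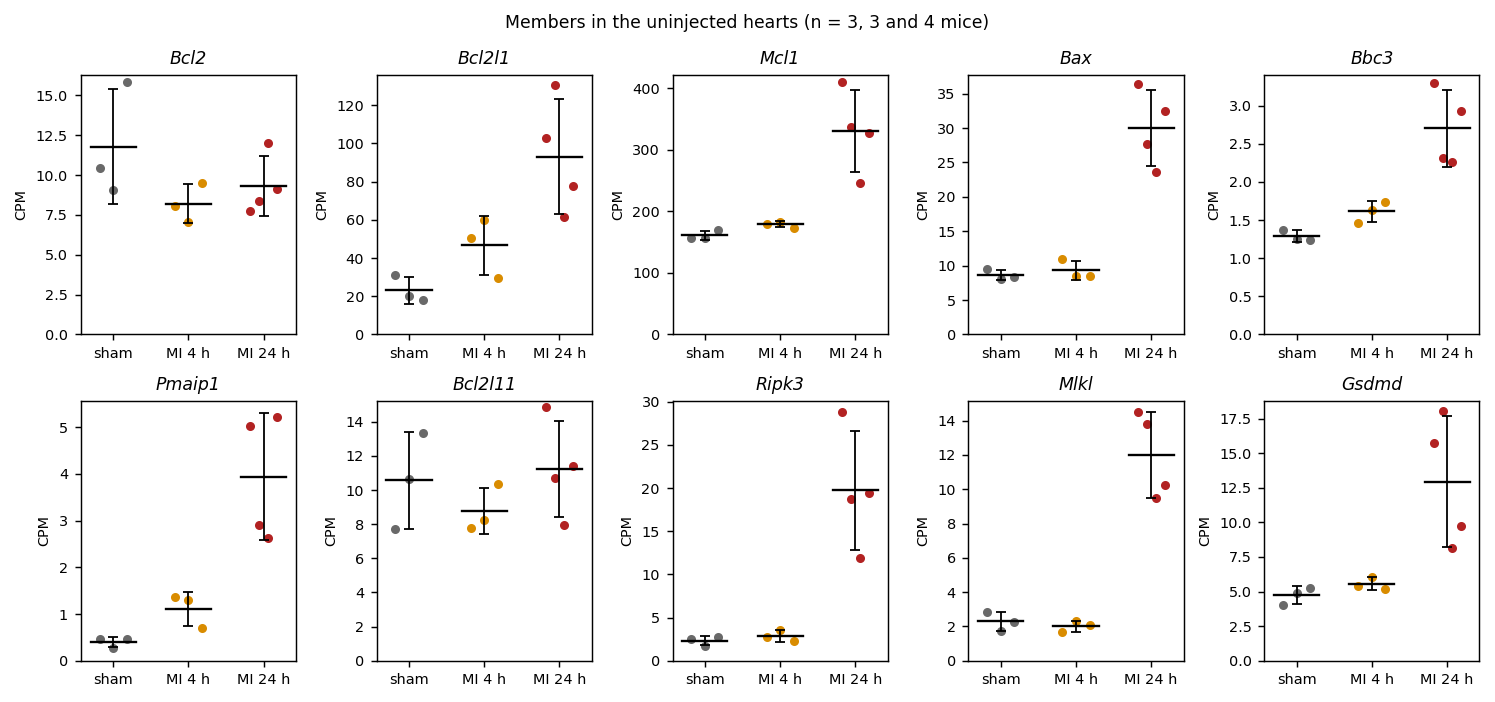
CPM of each of the 10 members in sham hearts and in hearts 4 and 24 h post-MI without injection (points, 1 library per mouse; n = 3, 3 and 4; horizontal line and bar, mean ± SD). For 8 members the 24 h libraries lie above all others, while Bcl2 and Bcl2l11 overlap between the groups.

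Among the BH3-only genes, Pmaip1 was at 5.03, 2.91, 2.62 and 5.21 CPM at 24 h, which was 9.79-fold the mean of sham, the largest ratio among the 10 members. Its log2 fold change was 1.78 ± 0.21 (SE; limma, q = 2.7e-05). Bbc3 (Puma) was at 1.37, 1.25 and 1.23 CPM in sham and at 3.30, 2.31, 2.26 and 2.93 CPM at 24 h. It rose 2.10-fold, with a log2 fold change of 0.69 ± 0.13 (SE; limma, q = 0.00083). Bcl2l11 (Bim) was at 7.70, 10.6 and 13.4 CPM in sham and at 14.9, 10.7, 7.97 and 11.4 CPM at 24 h. The groups overlapped throughout, with a log2 fold change of 0.08 and a 95% interval of -0.37 to 0.54. Noxa and Puma are known targets of p53, and Cdkn1a, another such target that arrests the cell cycle, was 12.4-fold above sham. A part of p53 in these rises was not tested.

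All 3 lytic death genes rose between 4 and 24 h. Ripk3 was at 2.53, 1.73 and 2.70 CPM in sham, at 2.78, 3.54 and 2.25 CPM at 4 h and at 28.7, 18.8, 11.9 and 19.4 CPM at 24 h. Its log2 fold change over sham at 24 h, 2.59 ± 0.24 (SE; limma, q = 4.2e-06), was the largest of the members, with a ratio of 8.50. Mlkl, the executor downstream of Ripk3, was at 2.86, 1.73 and 2.27 CPM in sham, at 1.65, 2.30 and 2.09 CPM at 4 h and at 14.5, 13.8, 9.46 and 10.2 CPM at 24 h. It rose 5.24-fold, with a log2 fold change of 1.98 ± 0.17 (SE; limma, q = 3.0e-06). Gsdmd was at 4.01, 4.92 and 5.26 CPM in sham and at 15.8, 18.1, 8.18 and 9.74 CPM at 24 h. It rose 2.73-fold, with a log2 fold change of 1.22 ± 0.23 (SE; limma, q = 0.00061).

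A single library, 24 h replicate G, was the lowest of the 4 in 9 of 10 members and the highest in Bcl2. Over all genes tested it was the lowest in 20.3% and the highest in 46.7%. The same library had the highest sum of 8 cardiomyocyte markers of the 24 h group, 33245 CPM against 19161 to 24471 in the other 3, and the lowest sum of 8 neutrophil markers, 311 CPM against 837 to 1949. Without it, as without any other library, 8 members still passed at 24 h. In the sham hearts the cardiomyocyte sum was 46320 to 49319 CPM, the neutrophil sum 1.98 to 3.57 CPM and the sum of 8 monocyte and macrophage markers 96.9 to 162 CPM (332 to 628 CPM at 24 h). At 4 h the cardiomyocyte sum was 45190 to 48873 CPM. In bulk tissue, a different number of cells of a type and a different level per cell cannot be told apart, and the part of these shifts in the rise of the members was not tested.

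The wider death machinery showed rises and falls at 24 h, as did all genes tested, of which 35.6% rose and 30.3% fell. Of 14 other Bcl2 family genes tested, 8 rose and 2 fell. Bcl2a1b and Bcl2a1a, survival genes known from leukocytes, had log2 fold changes of 3.15 and 1.90, and the BH3-only gene Bid, which links death receptors to mitochondria, 1.84. Bmf, a BH3-only gene of detached cells, fell by 0.98, and the mitochondrial Bcl2l13 fell by 0.52. Of 15 genes of the apoptosome and caspases, 5 rose and 4 fell. The inhibitor of apoptosis Birc3 (1.73) and the initiator Casp8 (1.52) had the largest rises. The mitochondrial oxidoreductase Aifm1 (-1.12), the apoptosome's initiator Casp9 (-0.63) and the mitochondrial nuclease Endog (-0.56) had the largest falls. These are log2 fold changes, and all passed in limma, with q of 0.0153 or less.

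Of 10 death receptors and adaptors, 9 rose and none fell, again beside 35.6% of all genes that rose and 30.3% that fell. The NF-kB feedback inhibitor Tnfaip3 had a log2 fold change of 2.18, the TNF receptor Tnfrsf1a 1.99 and the TRAIL receptor Tnfrsf10b 1.54. Of 13 partners of necroptosis and pyroptosis, 12 rose and 1 fell. Il1b, the cytokine released through gasdermin pores, had a log2 fold change of 5.74, the Ripk3 activator Zbp1 3.49 and the inflammasome sensor Nlrp3 3.37, while the double-stranded RNA receptor Tlr3 fell by 0.41. Of 10 p53 and stress regulators, 7 rose and 2 fell, led by Atf3 (5.27), Cdkn1a (4.03) and Trib3 (2.67), with Foxo3 at -1.37 and Foxo1 at -0.65. At 4 h post-MI, when no member passed, 7 of these genes already had, all of them higher. Over all genes, 1.55% were higher and 0.817% lower there. The 7 genes were Birc3, Tnfrsf10b, Ripk1, Tnfaip3, Il1b, Cdkn1a and Atf3, named after their values were seen, with log2 fold changes of 0.71 (Tnfrsf10b) to 5.45 (Atf3). Birc3 did not pass with either rescaling of the libraries, and Tnfrsf10b and Ripk1 not with equal totals. No other Bcl2 family gene was among them.

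At 4 h after MI with Luc modRNA, none of the 10 members passed against sham, beside 1.55% of the 12555 genes tested (1.25% higher, 0.295% lower). Bax was the member with an unadjusted p under 0.05. It was at 6.03 and 7.65 CPM in the 2 sham libraries and at 13.7, 9.54, 9.07 and 11.6 CPM in the Luc libraries. All Luc libraries lay above both sham libraries, as they did for Pmaip1 and Gsdmd, 3 of 10 members beside 17.2% of all genes. The log2 fold change of Bax was 0.60 ± 0.21 (SE; limma, q = 0.188). Bcl2l1 was at 48.0 and 62.1 CPM in sham and at 47.6 to 63.5 CPM (median 50.5) in Luc hearts at 4 h. The sham hearts of this table thus began from a mean of 55.0 CPM, and those of the uninjected table from 23.0 CPM.

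At 24 h after MI with Luc modRNA, 6 of 10 members rose over sham and none fell, while 34.1% of all genes changed (25.3% rose and 8.79% fell). The median log2 fold change was 0.84 over the members and 0.16 over all genes. Bcl2l1, Bax, Bbc3, Pmaip1, Mlkl and Gsdmd passed. Against Luc hearts at 4 h, Bcl2l1, Pmaip1, Ripk3, Mlkl and Gsdmd rose, 5 of 10, while 32.3% of all genes changed (24.5% rose and 7.8% fell). Mcl1, which had risen in the uninjected hearts, did not, and Ripk3 missed the threshold narrowly. Scaling bears on the direction over all genes here: the split of 3172 higher and 1103 lower genes became 2296 and 2044 with scaling by the median ratio and 1839 and 2480 with equal totals, and the median of all genes moved to -0.01 and -0.11.

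Bcl2l1 reached its highest level of the second table in these hearts, with 198, 190 and 235 CPM, 3.77-fold the mean of sham. The log2 fold change was 1.90 ± 0.30 (SE; limma, q = 5.6e-05). Against Luc hearts at 4 h it was 3.91-fold higher (limma, q = 7.5e-06). Bcl2 was at 8.83 and 8.12 CPM in sham and at 5.29, 7.01 and 7.95 CPM at 24 h, with a log2 fold change of -0.30 ± 0.22 (SE; limma, q = 0.308). All 24 h libraries of Bcl2 lay below both sham libraries, as in 18.5% of all genes. Mcl1 was at 260 and 214 CPM in sham and at 226, 166 and 173 CPM at 24 h. The groups overlapped, and the log2 fold change was -0.34 ± 0.19 (SE; limma, q = 0.172). With either rescaling Mcl1 passed as lower.

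Bax was at 16.7, 11.4 and 16.7 CPM at 24 h, 2.19-fold the mean of sham, with a log2 fold change of 1.01 ± 0.22 (SE; limma, q = 0.0015). The gain over Luc hearts at 4 h was 0.41 on the log2 scale and did not pass (limma, q = 0.0961). The ratio of Bax to Bcl2l1 ran from 0.0603 to 0.0847 in these hearts, against 0.123 and 0.126 in sham, as Bcl2l1 rose more than Bax. The ratio of Bax to Bcl2 had a median of 2.10, against 0.812 in sham.

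**Figure D2:**
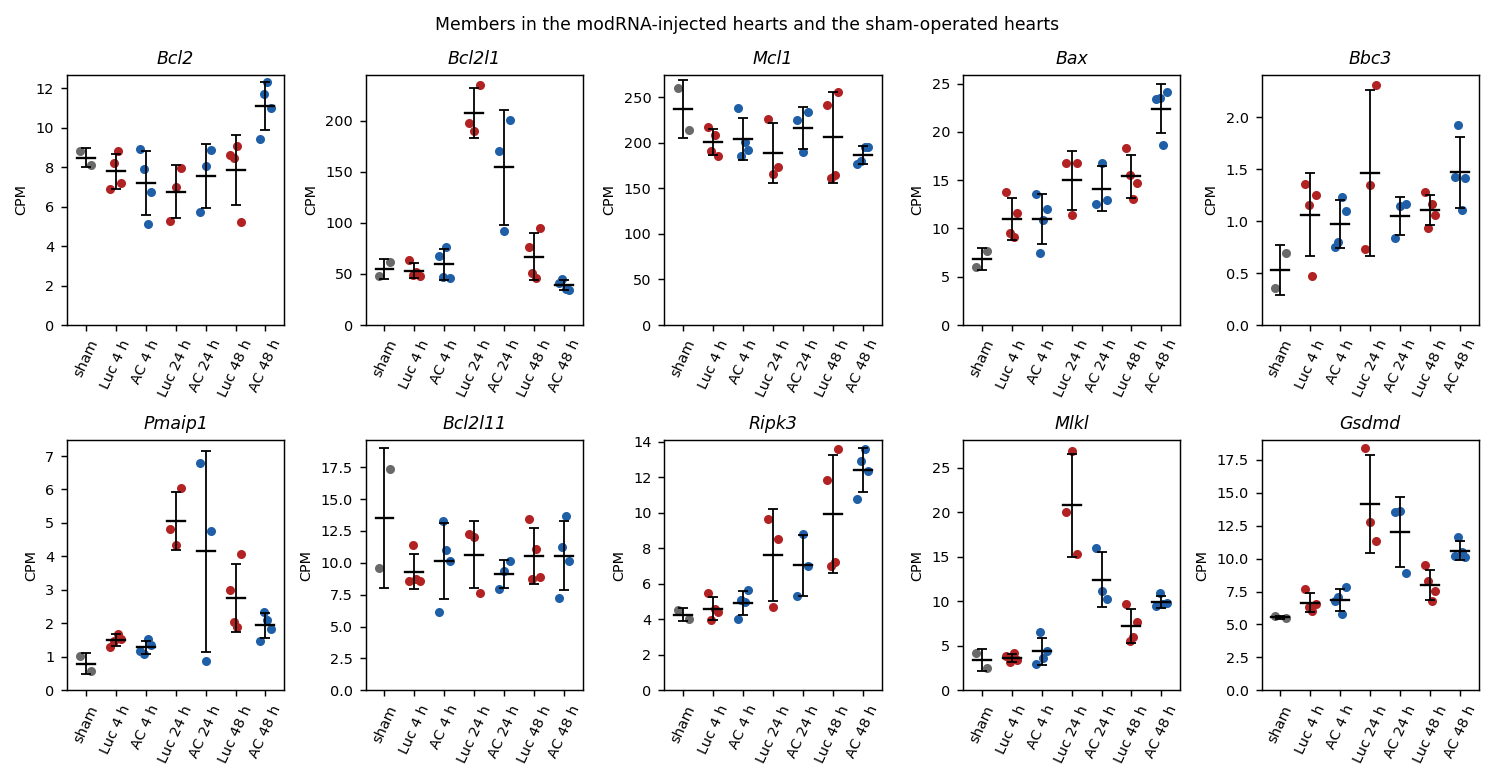
CPM of each of the 10 members in the second table, in sham-operated hearts (n = 2) and in hearts injected with Luc (red) or AC (blue) modRNA, collected 4 h (n = 4 each), 24 h (n = 3 each) and 48 h (n = 4 each) post-MI (points, 1 library each; horizontal line and bar, mean ± SD). The group means of Bcl2l1, Pmaip1, Mlkl and Gsdmd are highest in the 24 h Luc hearts, and those of Bax and Ripk3 in the 48 h AC hearts.

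Pmaip1 was at 1.01 and 0.571 CPM in sham and at 4.81, 4.34 and 6.03 CPM in Luc hearts at 24 h. It rose 6.40-fold, with a log2 fold change of 1.76 ± 0.36 (SE; limma, q = 0.00074). Bbc3 was at 0.358 and 0.698 CPM in sham and at 0.729, 1.35 and 2.31 CPM at 24 h. Its log2 fold change of 0.65 ± 0.23 (SE; limma, q = 0.0353) did not pass when Luc replicate C or D or sham replicate 1 was left out, nor under either rescaling. Bcl2l11 was at 9.61 and 17.4 CPM in sham and at 12.3, 12.0 and 7.60 CPM at 24 h. The groups overlapped, as in the uninjected hearts.

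Mlkl had the largest change of the members in Luc hearts at 24 h. It was at 4.24 and 2.51 CPM in sham, at 3.12 to 4.13 CPM (median 3.62) at 4 h and at 20.0, 26.9 and 15.3 CPM at 24 h. This was 6.15-fold the mean of sham, with a log2 fold change of 2.31 ± 0.26 (SE; limma, q = 1.6e-06). Gsdmd went from 5.64 and 5.46 CPM in sham to 18.4, 12.8 and 11.4 CPM at 24 h, a 2.55-fold rise with a log2 fold change of 1.19 ± 0.19 (SE; limma, q = 9.4e-05). Ripk3, the kinase that activates Mlkl, was at 4.53 and 4.00 CPM in sham and at 9.63, 4.67 and 8.54 CPM at 24 h. All 24 h libraries lay above sham, as they did for 7 members in all and for 37.4% of all genes. The log2 fold change of Ripk3 was 0.66 ± 0.26 (SE; limma, q = 0.0520). Without Luc replicate C it passed. Against Luc hearts at 4 h it passed (limma, q = 0.0442), a call that was lost without Luc replicate A or D at 24 h or replicate 2, 3 or 4 at 4 h, among other settings.

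Some cell type markers differed from sham in the 24 h Luc hearts, and others overlapped with it. The cardiomyocyte sum was 58039 to 73451 CPM, against 50409 and 50668 CPM in sham, but as a share of the library's total it overlapped with sham, at 7.68% to 8.97% against 8.06% and 8.13%. Within it, Myh6 went from a median of 14230 CPM in sham to 24992 CPM, while Pln went from 5447 to 3135 CPM and Myl2 from 8869 to 8365 CPM. The neutrophil sum was 47.3 to 95.7 CPM (sham, 3.08 and 21.4). The monocyte and macrophage sum was 99.3 to 135 CPM (sham, 125 and 181), and its genes moved in both directions. Medians of Fcgr1 (1.47 CPM in sham to 11.6 CPM) and Itgam (3.74 to 8.87) went up, as did those of Cd68 and Ly6c2. Medians of Lyz2 (97.4 to 47.8 CPM), Csf1r (33.1 to 17.8) and Adgre1 (8.20 to 4.82) went down, as did that of Ccr2. The endothelial sum was 606 to 782 CPM (sham, 388 and 478) and the fibroblast sum 876 to 1220 CPM (sham, 621 and 653). The atrial genes Myl7 and Sln were at 17.0 to 61.3 and 3.54 to 18.2 CPM in Luc hearts at 24 h, and at no more than 0.0952 and 0.0652 CPM in sham. The part of these shifts in the rise of Bcl2l1, Pmaip1, Mlkl and Gsdmd was not tested. The plot of summed markers shows the sums by library.

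The partners of the members moved in part alike in both tables at 24 h. In Luc hearts at 24 h, 25.3% of all genes rose over sham and 8.79% fell. Of 13 other Bcl2 family genes 2 rose and none fell, with Bid at a log2 fold change of 1.21. Of 15 apoptosome and caspase genes 6 rose and none fell, including Birc3 (1.88), Casp8 (0.98) and Endog (0.99). Of 10 death receptors and adaptors 7 rose and 1 fell, with Tnfaip3 at 4.28 and Tnfrsf1a at 2.28. Of 11 necroptosis and pyroptosis partners 8 rose and none fell, and Zbp1 (4.04), Il1b (2.63), Nlrp3 (2.49) and Tlr3 (1.71) were among them. Of 10 p53 and stress regulators 4 rose and none fell, with Cdkn1a at 3.05, Atf3 at 2.33 and Foxo1 at 0.71. Endog, Tlr3 and Foxo1, which had fallen at 24 h without injection, were thus among the genes that rose here, a difference between the tables that was not tested. The rise of Foxo1 did not pass with either rescaling and that of Endog not with equal totals. With median-ratio scaling and equal totals, higher and lower calls became 5 and 3, and 3 and 3, of the apoptosome and caspase genes, and 4 and 1, and 3 and 1, of the death receptors and adaptors.

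**Figure D3:**
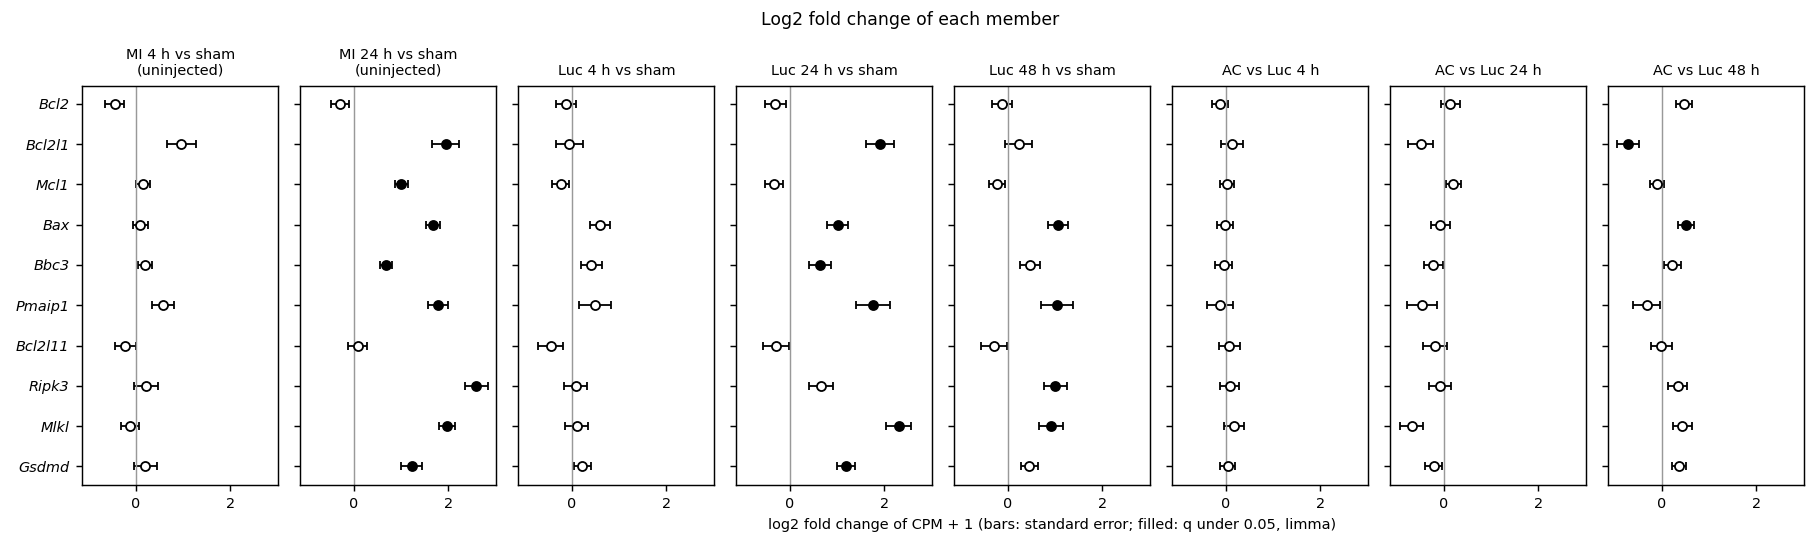
Log2 fold change of CPM + 1 (x axis) of each of the 10 members in 8 comparisons, 2 without injection and 6 in the injected hearts (points; bars, standard error; filled points, q under 0.05 in limma). All filled points lie right of 0, except Bcl2l1 in AC against Luc hearts at 48 h.

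At 48 h after MI with Luc modRNA, 4 of 10 members were above sham and none below, while 30.1% of all genes passed (13.7% higher and 16.4% lower). The median log2 fold change was 0.46 over the members and -0.03 over all genes. Bax (13.0 to 18.3 CPM, median 15.1), Pmaip1 (1.88 to 4.08, median 2.52), Ripk3 (7.01 to 13.6, median 9.54) and Mlkl (5.55 to 9.67, median 6.85) passed. Their ratios to sham were 2.25, 3.48, 2.32 and 2.14, with q in limma of 0.00077, 0.0237, 0.0039 and 0.0082. Bbc3 and Gsdmd also lay above both sham libraries in all 4 Luc libraries, 6 of 10 members with no overlap against 19.2% of all genes, but did not pass. The calls leaned on single libraries: without sham replicate 2, Pmaip1 and Mlkl no longer passed, and Pmaip1 was also lost without sham replicate 1 or Luc replicate 3. In these hearts the cardiomyocyte sum was 33626 to 45745 CPM (sham, 50409 and 50668), the neutrophil sum 137 to 446 CPM (sham, 3.08 and 21.4) and the monocyte and macrophage sum 194 to 266 CPM (sham, 125 and 181). Myl7 was at 1.49 to 20.6 CPM and Sln at 0.204 to 9.90 CPM. Their part in the calls was not tested.

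From 24 to 48 h in Luc hearts, 3 members fell and none rose, while 41.9% of all genes changed (32.6% fell and 9.32% rose). Bcl2l1 fell from 198, 190 and 235 CPM to 76.5, 50.7, 94.9 and 45.7 CPM. This brought it back near the 48.0 and 62.1 CPM of sham, with a log2 fold change of -1.67 ± 0.25 (SE; limma, q = 4.1e-05). Mlkl fell by 1.39 ± 0.22 on the log2 scale (SE; limma, q = 7.6e-05) and Gsdmd by 0.73 ± 0.16 (SE; limma, q = 0.0013). Pmaip1 also had no overlap between the times, with a log2 fold change of -0.72 ± 0.30 (SE; limma, q = 0.0559). With it, 4 members lay lower in all 48 h libraries, beside 32.4% of all genes (8.6% lay higher). In contrast, the log2 fold change of Bax was 0.05 and that of Ripk3 0.34, with 95% intervals of -0.34 to 0.44 and -0.11 to 0.79. Bcl2l1 and Mlkl fell under each scaling, while Gsdmd did not pass with equal totals, where Bcl2, Mcl1, Bax and Ripk3 passed as higher at 48 h and the median of all genes moved from -0.25 to 0.18. The cardiomyocyte sum was lower at 48 than at 24 h (33626 to 45745 against 58039 to 73451 CPM), also as a share of the library's total (6.48% to 7.13% against 7.68% to 8.97%). The neutrophil sum (137 to 446 against 47.3 to 95.7 CPM) and the monocyte and macrophage sum (194 to 266 against 99.3 to 135 CPM) were higher. Their part in the falls was not tested.

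Hearts injected with AC modRNA were compared with Luc hearts at the same time, within 1 set of libraries each. At 4 h and at 24 h no member passed, and over all genes 1 gene, Asah1 (0.00796%), did. At 4 h no member had an unadjusted p under 0.05, and the widest of the 95% intervals, that of Pmaip1, ran from -0.70 to 0.44 on the log2 scale. Erythroid and atrial markers summed to 2422 to 10672 CPM in AC and 1703 to 2558 CPM in Luc hearts at 4 h, against 190 and 631 CPM in sham. Nearly all of this was haemoglobin, with the atrial genes Myl7 and Sln at no more than 0.147 and 0.255 CPM at 4 h. In AC hearts at 24 h Myl7 was at 9.05 to 112 CPM and Sln at 1.84 to 56.3 CPM. At 24 h Mlkl had an unadjusted p of 0.0080 and was at 16.0, 11.1 and 10.3 CPM in AC hearts against 20.0, 26.9 and 15.3 in Luc hearts, which overlapped (log2 fold change -0.68, 95% interval -1.17 to -0.20; limma, q = 0.909). AC replicate C at 24 h stood apart, with Bcl2l1 at 91.9 CPM (170 and 201 in the other 2) and Pmaip1 at 0.890 CPM (6.80 and 4.75). Its neutrophil sum was 318 CPM, against 51.3 and 88.8 in the other 2. The intervals at 24 h were wide, from -1.04 to 0.06 for Bcl2l1, and do not show that the treatments act alike.

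At 48 h, Bax was higher and Bcl2l1 lower in AC than in Luc hearts, while 15.3% of all genes passed (12.1% higher and 3.27% lower). Bcl2l1 was at 40.9, 45.0, 35.3 and 34.4 CPM in AC hearts and at 76.5, 50.7, 94.9 and 45.7 CPM in Luc hearts. All AC libraries lay below all Luc libraries, narrowly, as in 3.58% of all genes. The log2 fold change was -0.71 ± 0.23 (SE; limma, q = 0.0382). Bax was at 23.4, 23.5, 18.6 and 24.1 CPM in AC hearts and at 18.3, 15.5, 13.0 and 14.7 CPM in Luc hearts. The groups did not overlap, with a log2 fold change of 0.52 ± 0.17 (SE; limma, q = 0.0466). Bcl2 (9.44 to 12.3 CPM against 5.21 to 9.04) and Gsdmd (10.1 to 11.6 against 6.80 to 9.49) also lay higher in all AC libraries, 3 members with Bax beside 15.5% of all genes, and did not pass, with q in limma of 0.0681 and 0.0955. The ratio of Bax to Bcl2l1 was 0.523 to 0.701 in AC hearts and 0.155 to 0.307 in Luc hearts, the ratio of Bax to Bcl2 1.51 to 2.48 and 1.44 to 2.83.

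**Figure D4:**
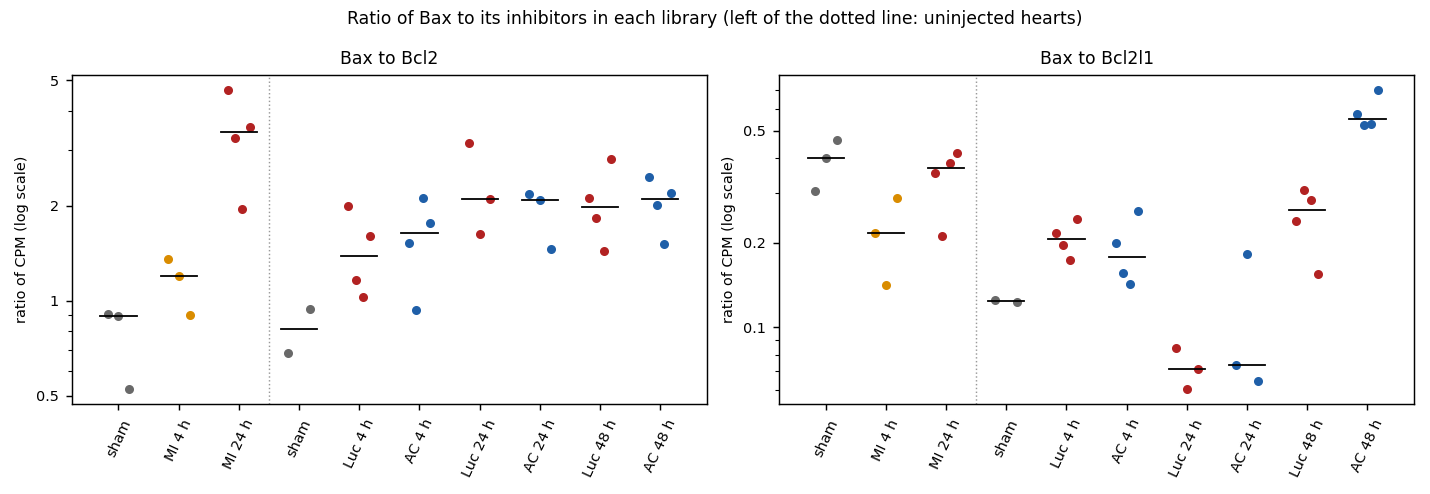
Ratio of the CPM of Bax to that of Bcl2 (left) and of Bcl2l1 (right) in each library, on a log scale (points; horizontal line, median), with the uninjected hearts left of the dotted line. The median ratio to Bcl2l1 is lowest in 24 h Luc hearts (0.0711) and highest in 48 h AC hearts (0.550).

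Both calls at 48 h were close to the threshold. Bax did not pass in 18 of 34 alternatives and Bcl2l1 not in 8. Without AC replicate 1, 2 or 5 or Luc replicate 3 of the 48 h hearts neither passed. Bcl2l1 was also lost without AC replicate 4 or Luc replicate 1, Bax without Luc replicate 2 or 4. Bax was lost as well when some single libraries of the 4 or 24 h hearts were left out. Under median-ratio scaling, which turned the split of all genes from 1516 higher and 410 lower to 823 and 801, Bax no longer passed. Some cell type markers differed as well. The cardiomyocyte sum was 25380 to 31050 CPM in AC and 33626 to 45745 in Luc hearts. The monocyte and macrophage sum was 434 to 629 and 194 to 266, and the sum of 6 fibroblast markers 1335 to 2092 and 755 to 1170. The neutrophil sum was 123 to 170 CPM in AC and 137 to 446 in Luc hearts. Their part in the difference of Bax and Bcl2l1 was not tested.

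No member had an effect of AC that differed between times at a q under 0.05 in limma. The nearest was Mlkl, whose AC effect was 1.12 ± 0.31 higher at 48 than at 24 h on the log2 scale (SE; limma, q = 0.0554), beside 2.56% of all genes called (2.23% with a higher effect at 48 h). The AC effect at 48 h was set against that at 4 h as well, where 3.35% of all genes passed (2.88% with a higher effect at 48 h), and Bcl2, Bcl2l1 and Bax had an unadjusted p under 0.05 there, with differences of 0.59, -0.85 and 0.53 (limma, q = 0.187, 0.151 and 0.245). In AC against Luc hearts at 48 h, 1 of 13 other Bcl2 family genes was higher and 1 lower. Of 15 apoptosome and caspase genes, 3 were higher and none lower. Of 10 death receptors and adaptors, 1 was higher and 1 lower, and of 10 p53 and stress regulators, 2 and 1. Among these, the effector Bak1, the initiator Casp8, the adaptor Fadd, Trp53 and E2f1 were higher, and Bnip3, Fas and Cdkn1a were lower. These 8 genes were named after their values were seen, with log2 fold changes of -1.63 (Cdkn1a) to 1.37 (E2f1). Over all genes, 12.1% were higher and 3.27% lower in AC hearts at 48 h. Casp8 did not pass with median-ratio scaling. None of the 11 necroptosis and pyroptosis partners passed, while with median-ratio scaling 1 was lower and with equal totals 1 was higher.

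Over the 24 libraries of the second table the members fell into unlike patterns, given here as a description over libraries that share their groups. Pearson's r of log2(CPM + 1) was 0.902 between Mlkl and Gsdmd, 0.823 between Bax and Ripk3, 0.763 between Bcl2l1 and Pmaip1 and 0.755 between Pmaip1 and Mlkl. Between Bcl2l1 and Bax it was 0.006, and between Bcl2 and Bcl2l1 -0.529. Among 12554 other genes, those most like Bcl2l1 were Mocs1 (0.969), Lrrc47 (0.954) and Ddx24 (0.952), and those most like Bax were Aprt (0.967), Arhgdia (0.961) and Ftl1 (0.961). Ripk3 was nearest to Fxyd5 (0.953), Wdr1 (0.937) and Rnf149 (0.937), Mlkl to Mitd1 (0.965), Phf11b (0.960) and Trim30a (0.959), and Gsdmd to Sec23b (0.907), Mlkl and Nop2 (0.901). Pmaip1 was nearest to Slc7a6 (0.930), Trim16 (0.927) and Rtn4rl2 (0.913). The neighbours of Bcl2 (Wls, Hs2st1 and Carf, 0.816 to 0.841), Bbc3 (Scarf2, Aldh16a1 and Sf3b4, 0.773 to 0.787), Mcl1 (Tmem41b, Ddx50 and Mkln1, 0.724 to 0.757) and Bcl2l11 (Wdr60, Atf7 and Maml3, 0.734 to 0.754) were less close.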

How the data were processed

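Total RNA was sequenced from poly(A) libraries, with groups taken from the sample labels. For the first table, the paper describes LV tissue of the ischemic area, or of the matching area in sham hearts. It does not describe where in the heart the tissue of the second table was taken. For the first table the authors used STAR and mm10 for alignment, the expectation-maximization method in Partek Flow with RefSeq genes for counting, and TMM scaling, and deposited CPM. How the second table was made is not given in the sources used here beyond mm10. Each of its libraries has a lowest value of exactly 1, so 1 was subtracted, and it was read as CPM from its like format. Depth of the first table was estimated as the sum of a library divided by its lowest value. Of values under 1 CPM, 81.5% to 83.7% were whole multiples of the lowest value (tolerance 0.02), too few for a count test.

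Per table, limma 3.58.1 (R 4.3.3; lmFit, eBayes with trend) was fitted to log2(CPM + 1) of the 12487 and 12555 genes whose mean reached 1 CPM, with all groups in 1 model and no covariates, and with Benjamini-Hochberg adjustment over these genes. The differences of the AC effect between times are contrasts of the same model. The script was tested on simulated data. Labels give 1 library per sample, and the paper 1 mouse per library for the first table; for the second nothing says so, and its p-values measure the spread between libraries, which may be technical. Letters or numbers shared between groups did not meet the criterion for pairing, a correlation of deviations over 0.1 in every pair (from -0.26 to 0.55 over all pairs; for AC and Luc -0.14 to 0.25 at 4 h, -0.07 to 0.09 at 24 h and -0.21 to 0.20 at 48 h), and were a block only in an alternative. Exon lengths are unions of protein-coding exons of GENCODE M21. Descriptive values were computed in Python 3.11 with pandas 2.3.3.

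The members and lists were chosen with earlier results of these data known. Named were all 10 members, of each wider list up to 3 genes with the largest rise and 3 with the largest fall at 24 h post-MI without injection among those past the threshold, and the 3 genes most correlated with each member, with exceptions stated. Some genes of these lists are counted but not reported here by name. Alternatives were a pseudocount of 0.1, no filter or a mean of at least 5 CPM, the compared groups alone, no trend, array weights, median-ratio scaling, equal totals, a replicate block, the second table as deposited, and each library left out in turn.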

Additional observations from a re-analysis of the deposited data

Results flagged for a closer look

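In groups of 4 libraries, a library was looked at again where its gap to the nearest other, divided by the range of the group, was over Dixon's 95% critical value. Of 50 pairs of group and member, 3 had such a library, and chance gives about 1 in 20. Bcl2l11 was at 11.4 CPM in Luc replicate 2 at 4 h, and at 8.54 to 8.73 CPM in the other 3. Bcl2 was at 5.21 CPM in Luc replicate 3 at 48 h, and at 8.47 to 9.04 CPM in the other 3. Bax was at 18.6 CPM in AC replicate 4 at 48 h, and at 23.4 to 24.1 CPM in the other 3.

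Members whose change from sham differed between times in limma were also noted, from the test between the 2 times, since both share the sham hearts. Without injection, 24 h exceeded 4 h on the log2 scale by 2.38 in Ripk3, 2.09 in Mlkl, 1.58 in Bax, 1.20 in Pmaip1, 1.03 in Gsdmd, 0.99 in Bcl2l1, 0.86 in Mcl1 and 0.49 in Bbc3. The difference of Bcl2l1 did not pass without 4 h replicate E. With Luc modRNA, 24 h exceeded 4 h by 2.21 in Mlkl, 1.95 in Bcl2l1, 1.27 in Pmaip1, 0.96 in Gsdmd and 0.58 in Ripk3, the last of which did not pass in 14 of 34 alternatives. The 48 h Luc hearts differed from those at 24 h by -1.67 in Bcl2l1, -1.39 in Mlkl and -0.73 in Gsdmd.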

How the results depend on the processing

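Of 36 changes of a member past the threshold, 27 passed in each alternative that tested the gene, and 9 were lost in some. A further 20 passed in some alternative, and none reversed. Bbc3 and Pmaip1 were not tested with a mean of at least 5 CPM, a filter that removes them. The number of members past the threshold stayed within 1.5 times that reported, or at 0, in all alternatives for 24 h against sham (6 to 8 of 8 reported) and against 4 h (6 to 9 of 8) without injection, and in Luc hearts for 4 h (0) and 24 h against sham (4 to 7 of 6), and 24 h against 4 h (4 to 6 of 5). For AC against Luc it stayed 0 at 4 and 24 h. For 4 h against sham without injection, 0 became 2 with array weights and 1 with the replicate block. For Luc hearts at 48 h against sham, 4 became 1 with array weights, 2 in the compared groups alone, and 2 to 5 with a library left out. For 48 against 24 h, 3 became 6 with equal totals and 3 to 4 with a library left out. For AC against Luc at 48 h, 2 became 1 with a pseudocount of 0.1, no filter, a mean of at least 5 CPM, the compared groups alone, median-ratio scaling or the values as deposited. It became 4 with equal totals, 6 with array weights, 0 with the replicate block, and 0 to 2 with a library left out. For the difference of the AC effect between 48 and 24 h, 0 became 1 with array weights and 0 to 1 with a library left out, and between 48 and 4 h 2 with array weights. The cause was not tested. The replicate block rests on shared numbers that did not meet the criterion for pairing. Over all genes, 296 calls at 4 h without injection ranged from 105 to 2500, the latter with array weights. In the second table, Luc against sham ranged from 52 to 596 (194 reported) at 4 h, 1682 to 4698 (4275) at 24 h and 1494 to 4174 (3774) at 48 h, and Luc at 24 against 4 h from 3067 to 6147 (4058). AC against Luc ranged from 1 to 6 (1) at 4 h, 0 to 6 (1) at 24 h and 810 to 3178 (1926) at 48 h. The count of 3178 came with array weights. The differences of the AC effect ranged from 1 to 3 (1), 56 to 991 (322) and 182 to 1621 (421) for 24 against 4 h, 48 against 24 h and 48 against 4 h. At 7 reads, the lowest estimate for Pmaip1, counting error alone is large, and the first table holds only genes with a value above 0 in all libraries.

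With median-ratio scaling and equal totals, higher and lower calls over all genes became 192 and 94, and 167 and 175, for 4 h against sham without injection (194 and 102 reported). For Luc hearts they became 1983 and 1940, and 2489 and 1286, for 48 h against sham (1714 and 2060), 1971 and 1786, and 1709 and 1833, for 24 against 4 h (3079 and 979), and 2000 and 2086, and 3229 and 948, for 48 against 24 h (1170 and 4088). For the AC effect they became 157 and 125, and 242 and 77, for 48 against 24 h (280 and 42), and 267 and 187, and 675 and 67, for 48 against 4 h (362 and 59).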
